A study of Mus musculus with 6 samples.

Results

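The genes described here carry out antigen presentation through the major histocompatibility complex (MHC), and were measured in the cortex of mice after stroke. They are 10 genes chosen by name out of 24554 genes and unmatched rows in a table of RefSeq transcript counts. The class I members were H2-K1, H2-D1, B2m, Tap1 and Tap2, and the class II members were Cd74, H2-Aa, H2-Ab1, H2-Eb1 and Ciita. Rows of the same gene symbol were summed. Earlier results of these data were known when the members were chosen.

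In class I presentation, the proteasome cuts proteins of the cell's own interior into peptides, the TAP transporter moves them into the endoplasmic reticulum, and a heavy chain paired with beta-2-microglobulin shows them to CD8 T cells. In class II presentation, an alpha and a beta chain are held by the invariant chain until peptides made in lysosomes replace it, and the complex is read by CD4 T cells. In the brain, class I genes are expressed at low to moderate levels by many cell types, while class II genes are mostly associated with microglia and border macrophages that respond to injury and with immune cells that enter the tissue.

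RNA was sequenced from snap-frozen cortex of male C57BL/6J mice aged 15 weeks, 14 days after stroke, with 3 libraries of a group that drank short-chain fatty acids (SCFA) and 3 of a salt-matched control group. SCFA or control salts were in the drinking water over 4 weeks, starting at 6 to 8 weeks of age. Both groups also drank vancomycin, ampicillin, neomycin and metronidazole in water sweetened with 5% sucrose, so the controls are antibiotic-treated stroke animals. The stroke model, the hemisphere, the acids used and whether SCFA continued after stroke were not stated in the labels, and no group without stroke or antibiotics was analysed here. The comparison asks how SCFA change the transcriptome of the post-stroke cortex.

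Library totals ran from 9275252 to 13862756 counts, and a single row without a gene name took 35.0% to 55.3% of each. Neuron markers, led by Camk2a and the cortical gene Slc17a7, summed to 2374 to 2976 CPM (counts scaled to library size) in every library. A library in each group stood apart from the others before any gene was compared. On the first principal component control 2 was at 109.2 and the other 5 libraries ranged from -25.77 to -17.74. SCFA 2 lay at 51.59 on the second, and the next highest was SCFA 3 at 9.54. SCFA 2 also held 388.9 CPM of striatal neuron markers against 67.07 to 127.5 CPM in the other libraries. Markers of exocrine pancreas summed to 40.74 to 416.3 CPM in controls and 0.825 to 2.925 CPM with SCFA; the part of these differences in the results below was not tested. Nothing in the labels ties a library to 1 animal, so p-values measure only the spread between these libraries, which may be technical.

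Promoters of several members carry a well-known pair of elements, the X2 box (read by CREB family proteins) and the Y box (read by NF-Y), on which the class I activator NLRC5 and the class II activator CIITA assemble. The 250 bases before the RefSeq start of 5 members are shown because class I and class II genes share this pair. Sequences are from RefSeq on GRCm38.p6, given 5′ to 3′ on the gene's strand. Promoter windows were found for 6 of the 10 members, the 5 shown and Tap1. Those shown are B2m (chr2:122147437-122147686, plus strand), H2-D1 (chr17:35262844-35263093, plus strand), H2-Aa (chr17:34287824-34288073, minus strand), H2-Eb1 (chr17:34305617-34305866, plus strand) and a distal stretch of H2-K1 (chr17:34000420-34000597, minus strand) with its X2 to Y site (chr17:34000359-34000388). The H2-K1 sequences shown lie inside the span given for that gene (33996012 to 34000619), so distances hold for the start used here. Another H2-K1 window, which also held the pair, is not shown. Capitals mark TGACG and ATTGG where they form a pair, ATTGG or its complement alone in H2-Eb1, the kappa B motif (the run of 11 capitals in H2-D1 and H2-K1), and an interferon response motif, either GAAA, any 2 bases and GAAA or its shorter form GAA, any 2 bases and GAAA.
B2m: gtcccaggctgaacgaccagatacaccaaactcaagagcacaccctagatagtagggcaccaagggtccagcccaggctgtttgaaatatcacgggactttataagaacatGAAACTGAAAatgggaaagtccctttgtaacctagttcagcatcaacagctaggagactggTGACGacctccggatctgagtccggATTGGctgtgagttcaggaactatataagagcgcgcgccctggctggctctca
H2-D1: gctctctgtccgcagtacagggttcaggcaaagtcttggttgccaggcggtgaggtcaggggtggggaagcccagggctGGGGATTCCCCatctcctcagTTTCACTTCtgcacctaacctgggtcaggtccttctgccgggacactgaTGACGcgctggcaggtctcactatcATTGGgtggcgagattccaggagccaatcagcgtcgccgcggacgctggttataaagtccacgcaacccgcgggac
H2-K1 distal: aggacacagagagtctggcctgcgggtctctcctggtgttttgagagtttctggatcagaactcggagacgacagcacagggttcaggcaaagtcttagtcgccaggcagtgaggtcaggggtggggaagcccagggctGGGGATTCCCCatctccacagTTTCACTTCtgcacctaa
H2-K1 site: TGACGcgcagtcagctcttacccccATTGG
H2-Aa: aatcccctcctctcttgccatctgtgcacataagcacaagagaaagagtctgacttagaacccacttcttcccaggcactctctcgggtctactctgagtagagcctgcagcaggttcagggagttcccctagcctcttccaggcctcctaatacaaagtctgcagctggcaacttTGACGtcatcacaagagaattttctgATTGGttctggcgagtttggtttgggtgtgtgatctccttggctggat
H2-Eb1: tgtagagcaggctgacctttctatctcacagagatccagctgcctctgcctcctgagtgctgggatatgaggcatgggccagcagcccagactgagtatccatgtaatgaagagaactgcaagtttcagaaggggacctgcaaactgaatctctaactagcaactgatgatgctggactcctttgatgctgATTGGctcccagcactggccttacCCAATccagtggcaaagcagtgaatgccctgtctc

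The pair TGACG and ATTGG stood 20 bases apart in B2m, H2-K1 and H2-D1 and 21 bases apart in H2-Aa. Searched on both strands with a gap of 20 or 21 bases, it occurred in 50 of 32851 promoter windows of the same length (0.152%), belonging to 44 genes. TGACG occurred anywhere in 17.8% of windows and ATTGG in 33.8%. H2-Eb1 had ATTGG on each strand and no such pair in this window. The class I member Tap1, searched but not shown, held both TGACG and ATTGG but no such pair. Only these exact letters were searched, so an X2 box with other letters would have been missed. The kappa B motif, read by NF-kappa B, was present in H2-K1 and H2-D1 and in 10 windows of all (0.0304%). The longer interferon response motif, read by interferon regulatory factors, was present in B2m and in 2.98% of windows. The shorter one was present on the opposite strand in H2-K1 and H2-D1 and in 6.31% of windows. The motifs were chosen with these sequences in view, and a match describes letters, not binding.

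**Figure D1:**
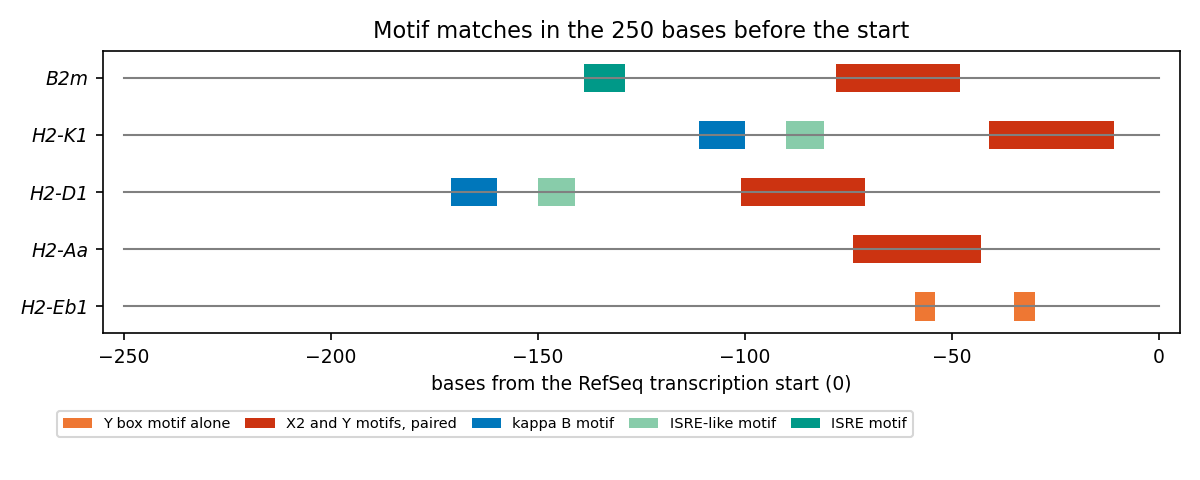
Motif matches in the 250 bases before the RefSeq start of 5 members; the horizontal axis is the distance from the start in bases, and coloured blocks are matches (ISRE, the interferon response motif; ISRE-like, its shorter form). The paired X2 and Y motifs start 78 bases before the start in B2m, 101 in H2-D1, 41 in H2-K1 (from the start used here) and 74 in H2-Aa. For the exact letters searched, H2-Eb1 shows Y box matches only.

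No member was called different between SCFA and control. Of the 10 genes, 7 had enough counts to be tested, and 0 of these passed (edgeR quasi-likelihood test with Benjamini-Hochberg adjustment over 11969 genes, adjusted p under 0.05), where 0.0835% of all tested genes passed (0.00835% higher and 0.0752% lower with SCFA). Of the 9 genes that passed as lower, 8 were among the exocrine pancreas markers, such as Amy2a5 and Pnlip. At an unadjusted p under 0.05 there was 1 of the 7, B2m, where 2.97% of all tested genes were higher and 2.79% lower. DESeq2 and limma-voom also called 0 members. The members not tested were Tap1, Cd74 and Ciita.

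Tap1, Cd74 and Ciita are also the members with more than 1 transcript row, and reads that fit more than 1 row bear on their counts. Tap1 encodes a subunit of the peptide transporter (chromosome 17, 34187556 to 34197225) and had 0 counts in all 6 libraries in both of its rows. A count of 0 allows up to 3 counts a group, or 0.0967 CPM in controls and 0.0799 CPM with SCFA. Of the 50-base windows of its transcripts, 98.2% of one row and 86.7% of the other also occur in the sister row. For Cd74, the invariant chain (chromosome 18, 60803849 to 60812652), controls 1 to 3 gave 2, 10 and 0 counts and SCFA 1 to 3 gave 3, 10 and 6, all in the row that shares 82.4% of its windows. The row that shares 95.4% had 0. For Ciita, the class II transactivator (chromosome 16, 10480014 to 10531064), controls gave 3, 0 and 0 counts and SCFA libraries 4, 0 and 3, over 5 rows that share 64.1% to 100% of their windows. The CPM ratio of SCFA to control was 1.31 for Cd74 (exact 95% binomial interval 0.603 to 2.95) and 1.93 for Ciita (0.440 to 11.6), and these intervals cover counting error only. How the authors counted reads shared by rows is not stated in the sources used here, and its part in these low counts was not tested.

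Among class I members, B2m and the classical heavy chains had their means above control with SCFA. B2m encodes beta-2-microglobulin, the light chain of every class I complex (chromosome 2, 122147687 to 122153082). It measured 177, 223 and 181 CPM in controls 1 to 3 and 242, 305 and 225 CPM in SCFA 1 to 3. Each SCFA library lay above each control, by the narrow margin between SCFA 3 and control 2. Such a separation in this direction was seen in 6.42% of all tested genes, and in the other direction in 5.74%. Means were 194 ± 25.4 CPM and 257.5 ± 42.1 CPM (SD, n = 3 each). The fitted log2 difference was 0.41 (SE 0.16, 95% interval 0.07 to 0.75, edgeR adjusted p = 0.8635). No 50-base window of its transcript occurs in a transcript of another gene.

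H2-K1, a classical heavy chain of C57BL/6 mice (chromosome 17, 33996012 to 34000619), measured 13.2, 46.3 and 20.4 CPM in controls and 41.8, 58.2 and 28.5 CPM with SCFA. The groups overlapped, since control 2 lay above SCFA 1 and SCFA 3. The log2 fold change was 0.69 (SE 0.38, 95% interval -0.13 to 1.52, edgeR adjusted p = 0.889). Without control 2 it was 1.35 (adjusted p = 0.155), without control 1 it was 0.37, and without SCFA 2 it was 0.41. H2-D1, the other classical heavy chain (chromosome 17, 35263094 to 35267497), measured 10.8, 16.9 and 5.91 CPM in controls and 14.7, 22.3 and 10.6 CPM with SCFA. It too was highest in control 2 among controls and in SCFA 2 among treated libraries, and the groups overlapped. The log2 fold change was 0.51 (SE 0.39, edgeR adjusted p = 0.903), with 0.92 when control 2 was left out, 0.21 when control 3 was and 0.19 when SCFA 2 was. Heavy chains have near-identical relatives, and 8.79% of the H2-K1 windows and 14.3% of the H2-D1 windows occur in other genes, so their split of reads is uncertain.

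Tap2, the partner subunit of the peptide transporter (chromosome 17, 34204479 to 34216321), measured 4.37, 4.96 and 4.505 CPM in controls and 4.28, 8.73 and 3.05 CPM with SCFA. SCFA 2 alone was high, and the other treated libraries lay below every control. The log2 fold change of 0.22 (SE 0.50, edgeR adjusted p = 0.969) became -0.325 without SCFA 2.

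Of the tested class II members, H2-Aa and H2-Ab1 had their means above control with SCFA and H2-Eb1 just below, and none passed the test. H2-Aa and H2-Ab1 encode the alpha and beta chain of I-A, the class II molecule that C57BL/6 mice display. H2-Aa (chromosome 17, 34282744 to 34287823) measured 5.02, 8.88 and 2.90 CPM in controls and 6.79, 11.5 and 7.74 CPM with SCFA. The groups overlapped through control 2. The log2 fold change was 0.64 (SE 0.46, 95% interval -0.34 to 1.62, edgeR adjusted p = 0.9025), or 1.13 without control 2, 0.33 without control 3 and 0.39 without SCFA 2.

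H2-Ab1 (chromosome 17, 34263227 to 34269418) gave 21, 38 and 24 counts in controls against 23, 122 and 110 with SCFA, or 1.70, 4.38 and 2.40 CPM and 2.40, 8.39 and 8.19 CPM. SCFA 2 and SCFA 3 lay above all controls, while SCFA 1 lay among them. Its log2 fold change of 1.18 was the highest of the 7 tested members (SE 0.59, 95% interval -0.10 to 2.46, edgeR adjusted p = 0.881), and under the alternatives it ran from 0.91 to 1.64. The I-A chains did not keep 1 ratio. H2-Ab1 stood at 0.339, 0.494 and 0.828 of the H2-Aa CPM in controls 1 to 3, and at 0.354, 0.731 and 1.06 in SCFA 1 to 3.

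H2-Eb1 encodes the beta chain of I-E (chromosome 17, 34305867 to 34316674), whose alpha partner is not made in C57BL/6 mice. It measured 2.995, 3.46 and 4.805 CPM in controls and 1.15, 4.81 and 3.65 CPM with SCFA, from 11 counts in SCFA 1 to 70 in SCFA 2. The groups overlapped, and SCFA 1 was the lowest library. The log2 fold change was -0.22 (SE 0.62, edgeR adjusted p = 0.974), and it was 0.18 without SCFA 1, 0.004 without control 3 and 0.001 with total-count scaling. Without SCFA 2 it was -0.62.

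**Figure D2:**
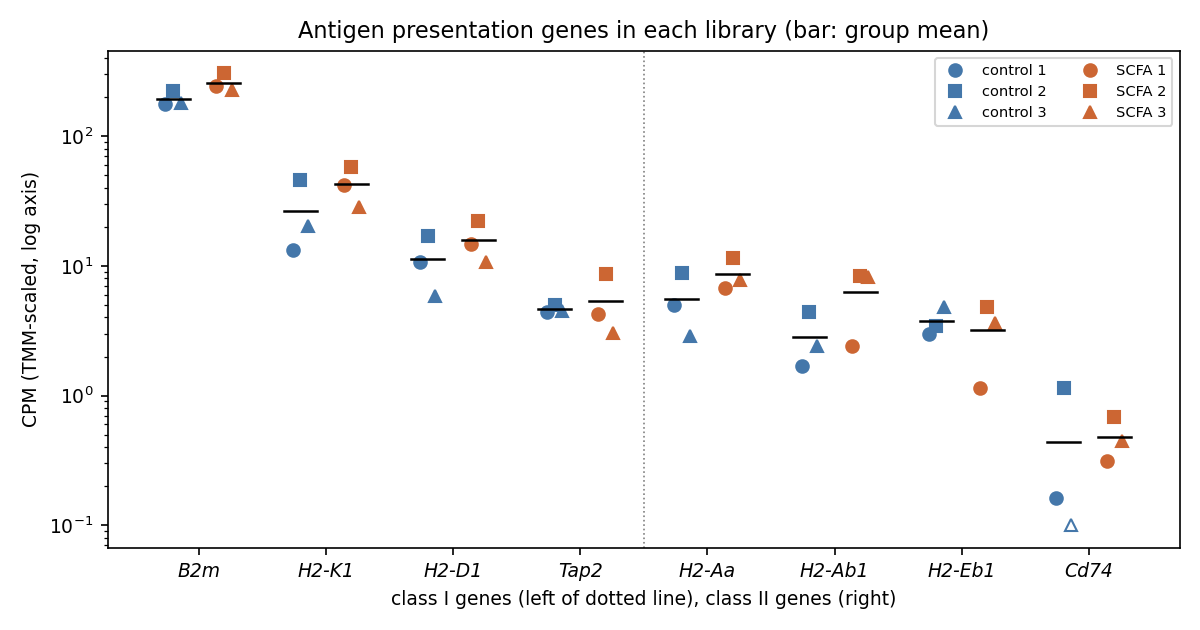
CPM of 8 members in each of the 6 libraries on a log axis, with class I genes left and class II genes right of the dotted line, group means as bars, and the hollow symbol marking a value of 0 (Cd74, control 3) drawn at 0.1. Only for B2m do the SCFA libraries (225 to 305 CPM) all lie above the controls (177 to 223 CPM).

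**Figure D3:**
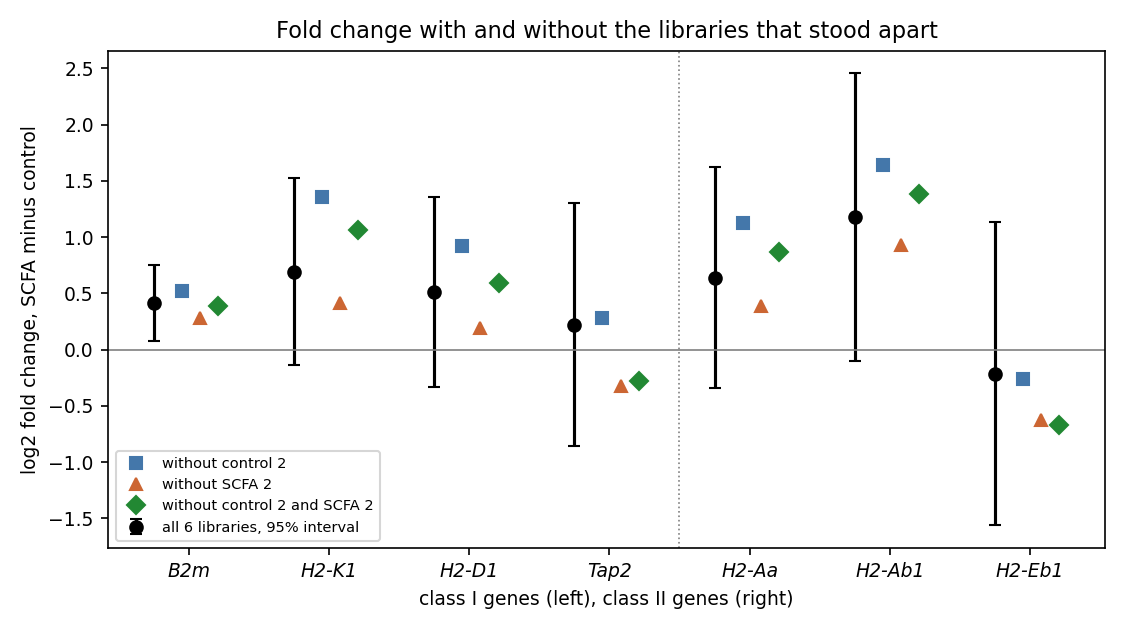
Log2 fold change of the 7 tested members, SCFA minus control, with 95% intervals from edgeR for all 6 libraries, and point values without control 2, without SCFA 2 and without both. The interval of B2m alone lies above 0, before adjustment for the number of genes, and the values without SCFA 2 are below the full values for all 7.

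Per length of transcript, class I light chain RNA far exceeded the rest. Levels are given in CPM per kilobase of the GENCODE transcript paired with the RefSeq row, over the 6 libraries. Tap1, with 0 counts, and Ciita, with counts in 2 of its rows, were left out. B2m had a median of 260.6 (range 205.6 to 354.9), above every library of every other member given here. H2-K1 came next with a median of 21.7 (8.15 to 36.0). H2-Aa followed at 6.44 (2.57 to 10.2) and H2-D1 at 6.06 (2.81 to 10.6), and their ranges overlapped almost fully. H2-Ab1 at 2.80 (1.40 to 6.92), H2-Eb1 at 2.13 (0.689 to 2.88) and Tap2 at 1.29 (0.887 to 2.54) overlapped their neighbours in this order. Cd74 stood last of the members given here at 0.270 (0 to 0.817), with the limit on its rows given above.

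The ratio of class II to class I RNA overlapped between the groups. The 5 class I genes summed to 205, 291 and 212 CPM in controls and 303, 394 and 268 CPM with SCFA. The 5 class II genes summed to 10.12, 17.9 and 10.11 CPM in controls and 11.1, 25.4 and 20.3 CPM with SCFA. Cd74 and Ciita added little to the class II sum and Tap1 added 0 to the class I sum. The limit on their rows given above thus applies to the sums and their ratio. Both sums overlapped between groups, through control 2 and SCFA 3 for class I and through control 2 and SCFA 1 for class II. The log2 ratio of group means was 0.45 for class I and 0.57 for class II, a difference of 0.13 where the replicate SD of the class II to class I ratio was 0.41 on the log2 scale. Class II stood at 4.93%, 6.14% and 4.77% of class I in controls and at 3.66%, 6.43% and 7.57% with SCFA, and SCFA libraries held both the lowest and the highest share. The difference between classes was -0.04 without SCFA 3 and 0.36 without SCFA 1. B2m made up 76.6% to 86.2% of the class I sum, so that sum mostly follows B2m. Among tested members the median log2 fold change was 0.46 for 4 class I genes and 0.64 for 3 class II genes, against 0.01 for all tested genes. Heavy chains and light chain did not move in a fixed ratio, since H2-K1 and H2-D1 together were 13.6%, 28.4% and 14.5% of the B2m CPM in controls and 23.4%, 26.4% and 17.4% with SCFA.

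Microglia markers differed between the groups in the same direction, and they are beside every value above. The 13 markers summed to 298.5 to 383.8 CPM in controls and 406.7 to 623 CPM with SCFA, without overlap. Of the 13, 12 were tested and 11 had a log2 fold change above 0 (50.9% of all tested genes did). In edgeR 0 passed adjustment and 5 were higher at an unadjusted p under 0.05 (2.97% of all tested genes were). Siglech was at 0 in all libraries. The class I sum equalled 68.3%, 75.8% and 71.0% of the microglia marker sum in controls and 73.5%, 63.3% and 65.8% with SCFA. For class II these shares were 3.37%, 4.65% and 3.39% in controls and 2.69%, 4.07% and 4.98% with SCFA. Relative to this marker sum the groups overlapped for both classes, as they already did in the class sums themselves. Endothelial markers, from cells that also carry class I, summed to 129.5 to 147.8 CPM in controls and 170.3 to 214.8 CPM with SCFA, with Pecam1, Tek and Ly6a at 0. Of 8 tested endothelial markers, 6 had a log2 fold change above 0 and 2 below, and 0 passed in edgeR. Astrocyte markers summed to 683.6 to 798.9 CPM and 963 to 1521 CPM, again without overlap. All 7 tested astrocyte markers had a log2 fold change above 0, and 0 passed in edgeR. The part of these cell types in the class I and class II values was not tested, and in bulk tissue more cells of a type and more RNA per cell cannot be told apart.

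Markers of other immune cells that carry or read these molecules overlapped between the groups. The 10 T cell markers, the cells that read both classes, summed to 0.901 to 10.14 CPM in controls and 5.33 to 12.17 CPM with SCFA, and Cd4, which other cells also express, and Cd28 were the highest. Cd3e, a signalling chain of the T cell receptor, had 3 counts in all 6 libraries together, Cd3d 19 and Cd3g 29. B cell markers summed to 0.576 to 1.13 CPM in controls and 0.223 to 1.36 CPM with SCFA, with Cd79b at 0, and NK cell markers to at most 2.20 CPM, with Klrb1c and Eomes at 0. Dendritic cell markers, the specialists of class II presentation, summed to 3.34 to 17.02 CPM in controls and 8.57 to 21.2 CPM with SCFA, with Clec9a and Siglech at 0. Border macrophage markers, led by Maf and Mrc1, summed to 72.3 to 87.6 CPM and 79.1 to 104 CPM, with Cd163 and Ms4a7 at 0. Monocyte and neutrophil markers summed to 1.73 to 10.4 CPM and 6.85 to 8.88 CPM, with S100a9, Chil3 and Ly6g at 0. In each of these 6 lists the groups overlapped.

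**Figure D4:**
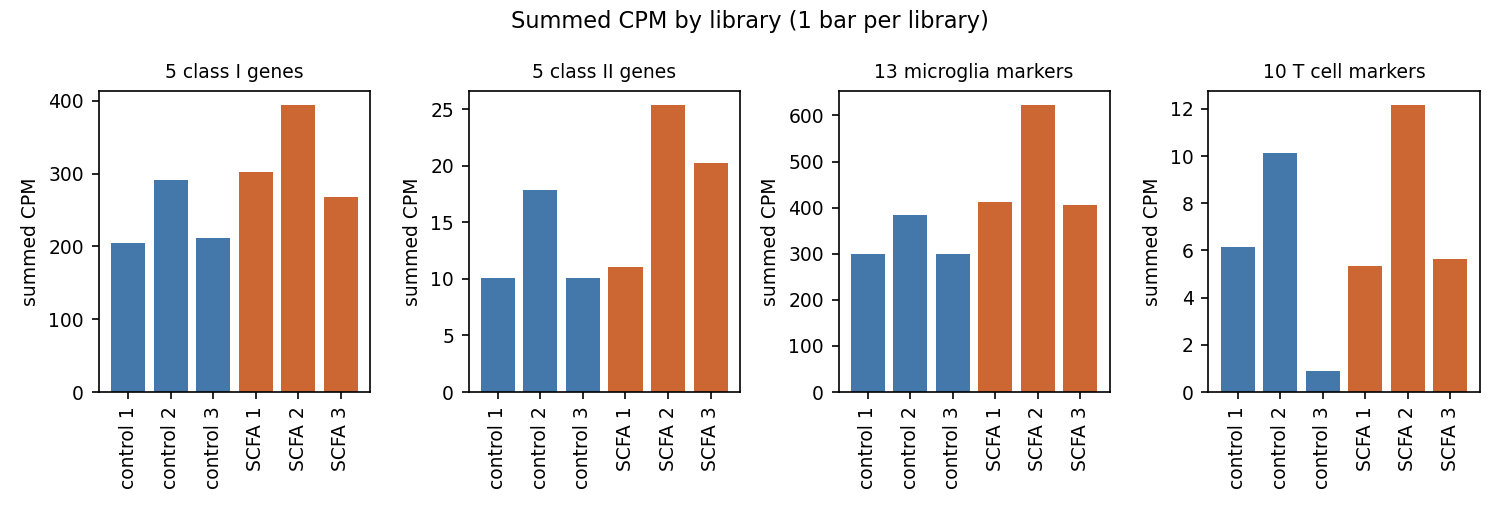
Summed CPM of the 5 class I genes, the 5 class II genes, 13 microglia markers and 10 T cell markers, with 1 bar per library and all axes from 0. SCFA 2 is highest in each panel, and only the microglia markers separate the groups (298.5 to 383.8 CPM against 406.7 to 623 CPM).

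The other genes of both routes were taken from 7 lists of antigen presentation genes. With the members, these hold 102 genes found in the table, of which 61 were tested and 0 passed in either direction in edgeR, with 12 higher and 1 lower at an unadjusted p under 0.05. In all tested genes, 2.97% were higher and 2.79% lower at that unadjusted level. DESeq2 called 1 of the 61, Ctsd, and limma-voom called 0. Of the 76 genes with 1 row, 58 were tested and 3 were at 0 in all libraries. Of the 26 with more rows, 3 were tested and 9 were at 0, among them Ctss, Tapbp and Canx, so these steps of the pathway gave no comparison.

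Peptide supply and loading for class I held 12 tested genes with a median log2 fold change of 0.15. Psmb8, an inducible subunit that turns the proteasome into the immunoproteasome, measured 0.728, 2.08 and 3.70 CPM in controls and 6.89, 8.11 and 4.24 CPM with SCFA. The groups did not overlap, and the log2 fold change was 1.57 (SE 0.62, edgeR adjusted p = 0.8635). Values of the other inducible subunits were not all above control. Psmb9 measured 2.35, 4.26 and 0.300 CPM in controls and 1.36, 1.03 and 0.744 CPM with SCFA. Its groups overlapped at a log2 fold change of -1.14 (SE 0.97, edgeR adjusted p = 0.914), and Psmb10 had 0.16 (SE 0.22, adjusted p = 0.956). Ide, a protease that degrades insulin and other peptides, went the other way. Its log2 fold change was -0.50 (SE 0.19), with 92.0 to 137.5 CPM in controls and 61.0 to 83.7 CPM with SCFA. Calr, a chaperone that holds the heavy chain during loading, had a log2 fold change of 0.41 (SE 0.19), with SCFA 2 at 257 CPM and the other libraries between 131 and 177 CPM. Both had an adjusted p of 0.8635 in edgeR.

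Other class I heavy chains, mostly non-classical, held 22 genes in the table and 8 tested, at a median log2 fold change of 0.15. Of the 8, 7 were above 0 (50.9% of all tested genes were). H2-T23 encodes Qa-1, which presents leader peptides of other class I chains to NK cell receptors. It measured 11.98, 13.6 and 6.51 CPM in controls and 23.5, 15.1 and 11.8 CPM with SCFA. The groups overlapped at a log2 fold change of 0.65 (SE 0.35, edgeR adjusted p = 0.889). H2-T24 and H2-Q4 had log2 fold changes of 0.60 (SE 0.47) and 0.43 (SE 0.49). H2-T24 was lowest in control 2, at 3.11 CPM against 12.2 to 23.8 CPM elsewhere, the opposite of H2-K1 and H2-D1 among the controls.

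Class II antigen processing, the lysosomal step, lay above 0 in 8 of 8 tested genes, where 50.9% of all tested genes did. The median log2 fold change was 0.56, and 3 further genes of this list were not tested. Ctsd, an aspartic protease of lysosomes, measured 161, 257 and 166 CPM in controls and 303, 528 and 340 CPM with SCFA. Its log2 fold change was 1.003 (SE 0.22, edgeR adjusted p = 0.352), and it had the smallest p of the 61 genes. It passed with DESeq2 (adjusted p = 0.00315), without the low-count filter (2.259e-07, where Lgmn also passed at 0.01255), without control 2 (0.0181) and without control 2 and SCFA 2 (0.00231). Without SCFA 2 its log2 fold change was 0.73 and its adjusted p 0.9996, the adjusted p of all 7 tested members in that fit too. Lgmn, a protease that cuts after asparagine, had a log2 fold change of 0.76 (SE 0.23) and Ctsb, a cysteine protease, of 0.57 (SE 0.20). Both had no overlap between groups, as 6.42% of all tested genes did in this direction, and an edgeR adjusted p of 0.8635. These proteases serve general lysosomal breakdown as well as class II loading. The peptide-exchange chains H2-DMa and H2-DMb1 had log2 fold changes of 0.49 (SE 0.49) and 0.43 (SE 1.18), and 4 of the 6 genes in their list had too few counts to be tested.

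Regulators of the promoters shown above did not move one way, with a median log2 fold change of 0.01 over 8 tested genes and 4 above 0. Spi1, which encodes the myeloid factor PU.1, measured 1.05, 0.692 and 2.10 CPM in controls and 4.70, 6.88 and 4.02 CPM with SCFA. Each SCFA library lay above each control, a log2 fold change of 2.01 (SE 0.64, edgeR adjusted p = 0.8635) from 6 to 100 counts a library. Rfxap, a subunit of the RFX complex next to the X2 box, had a log2 fold change of 0.78 (SE 0.35), and Nfkb1 of -0.45 (SE 0.23). Nlrc5 measured 2.43, 3.11 and 2.60 CPM in controls and 2.61, 3.58 and 0.521 CPM with SCFA, with SCFA 3 the lowest. Irf1, Creb1, Nfya and Nfyc have 2 or more rows and too few counts to be tested.

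Interferon gamma, the main inducer of both classes, had 1 count in all libraries. Of its signalling list 8 genes were tested, with a median log2 fold change of 0.79. The receptor chain Ifngr1 measured 8.175, 13.02 and 9.21 CPM in controls and 15.6, 23.4 and 19.4 CPM with SCFA. The groups did not overlap, at a log2 fold change of 0.95 (SE 0.29). The other receptor chain, Ifngr2, had -0.06 (SE 0.19) and the kinase Jak1 -0.07 (SE 0.13). The induced GTPase gene Irgm1 had 0.82 (SE 0.30) without overlap, and Igtp 0.76 (SE 0.49), where SCFA 2 stood at 14.2 CPM and the other libraries between 3.87 and 6.25 CPM. The adjusted p was 0.8635 or above for each of these. Costimulation and T cell contact held 8 tested genes with a median of 0.63. Lag3, a receptor that binds class II, had a log2 fold change of 0.81 (SE 0.35), Cd48 of 0.74 (SE 0.58) and Icosl of 1.58 (SE 1.09), and none passed (edgeR adjusted p from 0.8635 to 0.909).

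**Figure D5:**
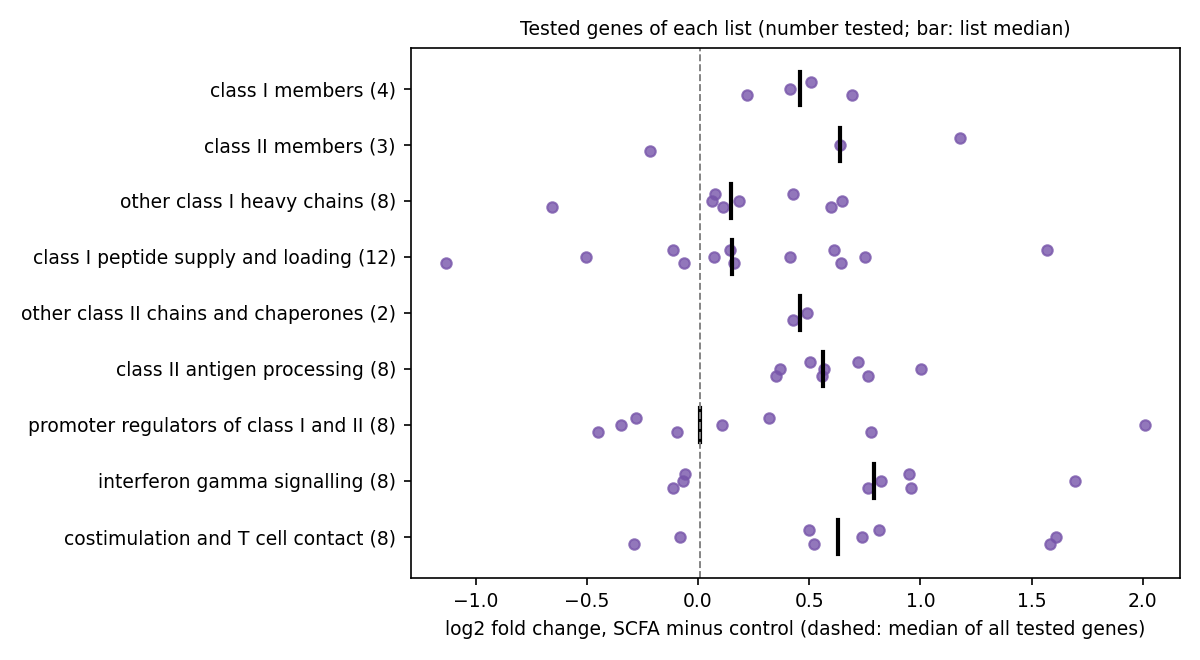
Log2 fold change, SCFA minus control, of each tested gene in the member lists and 7 related lists, with the list median as a bar, the number tested in parentheses and the median of all tested genes as the dashed line. All 8 tested genes of class II antigen processing lie above the dashed line, while the promoter regulators spread from -0.45 to 2.01.

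Among genes whose mean log2 CPM was 4 or more, the 3 closest to each of B2m, H2-K1 and H2-Aa over the 6 libraries were found by the root mean square difference of their centred log2 CPM. For B2m these were Lamb2 (0.0699), Cirbp (0.0730) and the astrocyte gap junction gene Gja1 (0.0753), where the median over 5306 genes was 0.347. For H2-K1 they were Grn (0.318), Lrrc47 (0.322) and Parp2 (0.325), at a median of 0.769, a wider distance than for B2m. For H2-Aa they were Cd9 (0.170), the lysosomal protease gene Ctsz (0.193) and Nckap1l, a gene of blood-lineage cells (0.203), at a median of 0.659. Grn showed the same high value in control 2 as H2-K1, with 26.1, 71.9 and 34.5 CPM in controls and 41.7, 72.2 and 45.0 CPM with SCFA.

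No call was made among genes near the members on the chromosome or with the same pair of promoter motifs. Between H2-K1 and H2-D1 on chromosome 17 (33996012 to 35267497) lay 40 further tested genes, of which 0 passed in edgeR. Their median log2 fold change was 0.21, with 29 above 0 (50.9% of all tested genes were). At an unadjusted p under 0.05, 4 were higher and 2 lower, against 2.97% and 2.79% of all tested genes. Among the 40 other genes with the paired X2 and Y motifs 28 were tested and 0 passed, with a median of -0.13 and 10 above 0. The class I gene H2-M3, which carries the pair, had a log2 fold change of -0.65 (SE 0.84), with 0.209 CPM in SCFA 1 and 2.10 to 5.30 CPM in the other libraries.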

How the data were processed

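Total RNA of cortex gave 6 libraries, prepared with the Ovation Human FFPE RNA-Seq kit per the labels' protocols. The authors deposited raw read counts per RefSeq transcript (34755 rows). CASAVA 1.8.2, featureCounts and the build mm10 stand in the submitters' processing notes. Not given in the sources used here: aligner, strand setting, shared reads and read length. Symbols were found for 34419 rows (99.03%) in RefSeq on GRCm38.p6, the assembly behind mm10, and rows were summed per symbol. The unnamed row stayed in library sizes and was removed in an alternative.

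The test was edgeR 4.0.16 under R 4.3.3 (filterByExpr with a minimum count of 10 and total of 15, TMM scaling, quasi-likelihood F test, two-sided, no covariate, Benjamini-Hochberg over 11969 genes, threshold 0.05). SE is the log2 fold change divided by the square root of F, and 95% intervals use the test's degrees of freedom. CPM use TMM-scaled sizes, for which 3 counts equal 0.206 to 0.346 CPM. Log2 CPM use a prior count of 2. The test was checked on simulated counts. No replicate pair differed as little as sampling noise. Shared windows of 50 bases were counted in GENCODE M21 transcripts.

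Named genes are all members, the 3 smallest p and any gene past the threshold in each antigen presentation list, the 2 highest of each marker list, and the 3 nearest patterns. Others (Psmb9, Psmb10, Nlrc5, Ifngr2, Jak1, Ifng, Ctss, Tapbp, Canx, Irf1, Creb1, Nfya, Nfyc, Cd3d, Cd3e, Cd3g, H2-M3, Gbp2 and Thop1) were named after their values were seen. Members, lists, motifs, tests and alternatives were chosen with earlier results of these data known. The alternatives were 3 other scalings, 2 other filters, DESeq2 1.42.0, limma-voom (limma 3.58.1), robust dispersion, the replicate block, each library left out, control 2 and SCFA 2 left out, structural RNA removed and unsummed rows. Counting the antigen presentation lists under these alternatives was chosen after seeing the data. One list gene is not reported here.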

Additional observations from a re-analysis of the deposited data

How the results depend on the processing

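No member passed the threshold under any of the 18 alternatives. With all libraries and edgeR, 1 member had an unadjusted p under 0.05, where 356 of 11969 genes were higher and 334 lower. Without control 2 there were 5 members, where 431 of 12602 genes were higher and 320 lower. Without control 1, control 3 or SCFA 2 there were 0 members. The log2 fold changes of B2m, H2-K1, H2-D1, H2-Aa and H2-Ab1 stayed above 0 in all 18. Leaving out 1 library gave -0.624 to 0.18 for H2-Eb1 and -0.325 to 0.504 for Tap2. H2-Eb1 turned to 0.001 with total-count scaling, 0.004 without control 3 and 0.18 without SCFA 1. Tap2 turned to -0.325 without SCFA 2 and -0.28 without control 2 and SCFA 2. Total-count scaling moved the median of all tested genes from 0.01 to 0.18, and that of class I to 0.70 and of class II to 0.91. The class I median ran from 0.23 to 0.72 and the class II median from 0.33 to 1.13. Over all genes, 1 was higher and 9 lower, 8 of the latter exocrine pancreas markers. Without a low-count filter these were 30 and 25, DESeq2 called 14 and 17, limma-voom 0 in each direction (unadjusted p under 0.05 in 421 and 384), and without control 2 and SCFA 2 there were 14 higher. With any single library dropped, 0 to 8 were called higher and 0 to 13 lower. A replicate block gave 10 higher and 12 lower and called Ctsd (adjusted p = 0.00778). Deviations of libraries that share a number correlated at -0.00206, 0.0101 and -0.00525. With 3 libraries a group these values cannot exclude a pairing or a shared batch, and the labels name neither. H2-Aa, H2-Ab1, H2-Eb1 and Tap2 rest on 11 to 167 counts a library, and with 3 libraries a group the 95% intervals of H2-Ab1, H2-Eb1 and Tap2 span more than 2 log2 units.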

Other observations

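In control 2 the antigen presentation genes did not move together. Its H2-K1, H2-D1, B2m, H2-Aa and H2-Ab1 were the highest of the 3 controls, while H2-T24 (3.11 CPM), the interferon-induced GTPase gene Gbp2 (0.807 CPM) and the peptidase gene Thop1 (3.92 CPM) were the lowest of all 6 libraries. Gbp2 measured 10.12 to 24.4 CPM in the other 5 libraries and Thop1 13.9 to 18.8 CPM. Control 2 also had counts in the fewest rows of the table, 13600 against 15988 to 16941 in the other libraries. The part of this in its low values was not tested.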
